A study of Homo sapiens with 18 samples.

Results

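The 88 genes described here carry the family names of ligands, receptors and transducers of the WNT, Notch and TGF-beta/BMP signalling pathways, and 5 of them match by symbol only. The LRP class also rests on the family name, and holds LDL-receptor relatives such as LRP12 beside the WNT co-receptor LRP6. The rule reads gene symbols alone: a gene is a member if its only symbol on the array platform starts with a family name of these pathways (WNT, FZD, LRP, LGR4, LGR5, LGR6, NOTCH, JAG, DLL, MIB, TGFB, BMP, BMPR, ACVR, SMAD or INHB) or is FST. They are 88 of the 14232 genes with a single symbol, and 90 of the 22011 transcript clusters, the array's probe groups for a transcript, carry them. FZD5 and SMAD2 have more than 1 cluster, and the brightest was used. Another 12 clusters share a family symbol with a further gene, among them those of NOTCH2, NOTCH4, LRP5 and DLL1, and were not used. BMPR1A was not analysed here.

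The RNA came from U251-MG, an established human astrocytoma line, treated for 30 min with 500 µM arsenite, a stressor that halts translation, or with the vehicle DMSO. Part of each condition was analysed as an RNA immunoprecipitate (RIP), the RNA recovered with an antibody to an RNA-binding protein. The 6 groups were the TIAR RIP with arsenite and with DMSO, the G3BP1 RIP with arsenite and with DMSO, and the input RNA with arsenite and with DMSO, each with 3 biological replicates and 1 exon array per replicate. TIAR, called Tial in the sample labels, and G3BP1 are proteins of stress granules, the cytoplasmic bodies in which untranslated mRNA gathers. No group carried a genetic change, and every group came from the same line.

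WNT proteins bind Frizzled receptors (FZD) with an LRP co-receptor and stabilise beta-catenin or steer cell polarity, and LGR receptors strengthen the signal by binding R-spondins. Notch ligands of the Jagged and Delta families act on Notch receptors of a neighbouring cell, and MIB ubiquitin ligases make the ligands active by driving their endocytosis. TGF-beta, activin and BMP ligands bind pairs of kinase receptors that phosphorylate SMAD proteins, which enter the nucleus. All of these pathways are active in gliomas, where TGF-beta, Notch and WNT signals are linked to invasion and stem-like growth.

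Values are log2 signals, so a difference of 1 is a doubling, and every change below is a log2 difference with its standard error (SE). A change was called when limma's adjusted p was under 0.05 over all 22011 transcript clusters. A RIP value is the share of an mRNA in the RNA on the array and not the amount that an antibody recovered. In bulk RNA, fewer cells with an mRNA and less of it per cell cannot be told apart. Probes differ in brightness, so a level is compared only between groups for the same gene.

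Of the 88 members, 49 (55.7%) had a mean over the median of all transcript clusters, 7.94, and the other 39 are called low here, where signal lies nearer to background and differences are less certain. The low members include LRP1 (7.65), BMP4, FZD4, DLL3, the receptor NOTCH3 (7.93), the inhibitory SMAD7 (7.10) and INHBA, the activin A subunit (6.92). Array medians ran from 7.73 to 8.07. Replicate 3 of the G3BP1 RIP with DMSO and replicate 1 of the input with arsenite stood apart: both had a mean correlation of 0.98 with their group, with upper quartiles of 9.45 and 9.17. Many, but not all, of the results that involve them are also given without both. Of 10 astrocyte and glioma markers, 7 were over that median and S100B, AQP4 and ALDH1L1 were under it. The markers over it were 2 of 5 for neurons (SYT1 and GAD1), 2 of 4 for epithelium (KRT8 and KRT19), 1 of 4 for endothelium and 0 of 3, 0 of 6 and 0 of 2 for oligodendrocytes, myeloid cells and blood.

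With arsenite, members that rose in the G3BP1 RIP included 4 of 10 FZD, 4 of 8 LRP, 2 of 3 LGR and 3 of 10 TGF-beta and BMP receptors, 5 of 17 TGF-beta, activin and BMP ligands and 2 of 19 WNT ligands. The class of 17, and the 5 that rose, include FST, which blocks activins and is not a ligand. Of the 8 SMADs, 0 passed the test there, 3 fell in the TIAR RIP and 4 fell in input. In the G3BP1 RIP, 24 of the 88 members rose and 0 fell, against 10.4% of all transcript clusters that rose and 4.08% that fell. The median change was 0.12 for the members and 0.01 for all transcript clusters. Among bright genes, 42.9% of the 49 members rose, against 20.1% of 7758 named genes. At an unadjusted p under 0.05, limma gave 33 members higher and 0 lower, but the share of all transcript clusters at that threshold is not given here. Without both arrays that stood apart, 25 members rose and 1 fell, against 11.1% and 13.7% of all transcript clusters. A model of the 6 G3BP1 arrays alone called 7 members higher and 0 lower, and its share of all transcript clusters is not given here.

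In the TIAR RIP, 6 members rose and 6 fell, against 6.15% of all transcript clusters higher and 5.71% lower. In input, 2 rose and 10 fell, against 2.52% and 11.2%. The members' counts in these sample types were close to the share for all transcript clusters. A model of the input arrays alone called 4 members, all lower (MIB1, SMAD3, ACVR1B and TGFBRAP1), and leaving out 1 array moved the input count between 7, without replicate 2 of the DMSO input, and 22, without replicate 3 of the G3BP1 RIP with DMSO. The TIAR count was 7 without replicate 2 or replicate 3 of the TIAR RIP with arsenite and without replicate 1 of the TIAR RIP with DMSO. Shares of all transcript clusters in these settings are not given here. The 3 sample types share no arrays, and 31 members changed in at least 1 of them. JAG1 and TGFB2 rose in all 3. NOTCH1 and BMP1 rose in both RIPs and passed the test in input without both arrays that stood apart, with median centring and with quantile normalization. ACVR1B, TGFBR1, TGFBR2 and WNT7B rose in the G3BP1 RIP and fell in input.

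**Figure D1:**
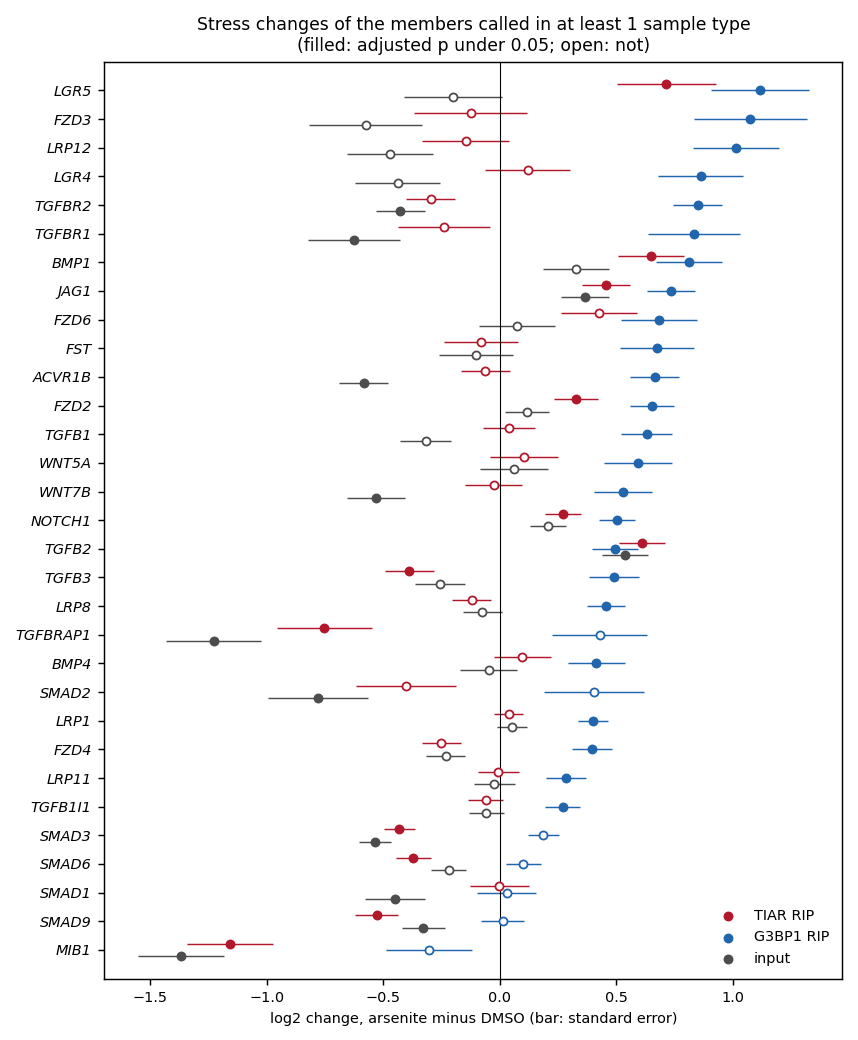
Log2 change with arsenite (arsenite minus DMSO, horizontal axis) of the 31 members that changed in at least 1 sample type, in the TIAR RIP, the G3BP1 RIP and input. Points are limma estimates from 3 arrays against 3, bars are standard errors, and filled points passed an adjusted p of 0.05. All 24 filled points of the G3BP1 RIP lie above 0, and 10 of the 12 of input lie below it.

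Among the FZD receptors, FZD2, FZD3, FZD4 and FZD6 rose in the G3BP1 RIP, which is 4 of 10. FZD3, a receptor of axon guidance and cell polarity, read 8.79, 8.67 and 8.47 with arsenite, against 7.84, 7.96 and 6.91 with DMSO. The groups did not overlap, and the third DMSO array, which stood apart, was the lowest. Its change was 1.08 ± 0.24 (adjusted p 0.00723), and 0.75 ± 0.13 without both arrays that stood apart. FZD2 read 9.41, 9.31 and 9.19 with arsenite, against 8.64, 8.71 and 8.61 with DMSO, a change of 0.65 ± 0.09 (adjusted p 0.000286). FZD6 rose by 0.68 ± 0.16 and FZD4, which is low, by 0.39 ± 0.09. FZD2 also rose in the TIAR RIP, by 0.33 ± 0.09 (adjusted p 0.0333, and up to 0.155 with 1 array left out, 0.0586 with median centring and 0.135 with quantile normalization). FZD6 had a TIAR change of 0.43 (adjusted p 0.12), which passed the test without both arrays that stood apart (0.0131), with median centring (0.0382) and with quantile normalization (0.00723). In input 0 of 10 passed the test, and FZD2 had a change of 0.12 ± 0.09 and FZD3 of -0.58 ± 0.24. With the arrays that stood apart left out, FZD4 fell in the TIAR RIP by 0.25 and in input by 0.32 (adjusted p 0.0118 and 0.0071), FZD5 rose in the G3BP1 RIP by 0.38 (adjusted p 0.0122), and the FZD3 change in input was -0.33. FZD7 had changes of 0.01 in the TIAR RIP, 0.32 in the G3BP1 RIP and -0.09 in input, with none past the test.

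Of the LRP receptors, 4 of 8 rose in the G3BP1 RIP: LRP12, LRP8, LRP1 and LRP11. LRP12, an LDL-receptor relative, read 9.92, 9.67 and 9.61 with arsenite, against 9.12, 8.86 and 8.16 with DMSO, a change of 1.01 ± 0.19 (adjusted p 0.00173), or 0.74 ± 0.11 without both arrays that stood apart. LRP8, a receptor for reelin and apolipoprotein E, read 11.79, 11.77 and 11.73 with arsenite, against 11.42, 11.28 and 11.22 with DMSO. The arsenite arrays lay above every DMSO array for both genes. LRP8 rose by 0.46 ± 0.08 (adjusted p 0.00172) and LRP1, a receptor of endocytosis, by 0.40 ± 0.06 (adjusted p 0.000575). LRP11 rose by 0.28 ± 0.09 (adjusted p 0.0408), and its call was lost with any of 9 arrays left out and without both that stood apart (adjusted p 0.0905). LRP6, the WNT co-receptor, had changes of 0.49 ± 0.18 in the G3BP1 RIP, -0.06 ± 0.18 in the TIAR RIP and -0.48 ± 0.18 in input, with adjusted p of 0.0848, 0.947 and 0.0927. No LRP receptor passed the test in the TIAR RIP or in input, where LRP1 changed by 0.04 ± 0.06 and 0.05 ± 0.06. LRP12 fell in input by 0.36 ± 0.11 (adjusted p 0.0375) without both arrays that stood apart, and with quantile normalization LRP6 did (-0.34, adjusted p 0.0272).

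LGR4 and LGR5, receptors for R-spondins and marks of stem cells in several tissues, rose in the G3BP1 RIP, and LGR6, which is low, did not pass the test. LGR5 read 9.93, 9.70 and 9.87 with arsenite, against 8.83, 9.08 and 8.24 with DMSO, a change of 1.12 ± 0.21 (adjusted p 0.00216), or 0.88 ± 0.10 without both arrays that stood apart. LGR5 in the TIAR RIP read 10.84, 10.73 and 10.90 with arsenite, against 10.22, 10.08 and 10.04 with DMSO. The arrays did not overlap in either RIP. The TIAR change was 0.72 ± 0.21 (adjusted p 0.0382), and leaving out any of 10 arrays took it past the threshold, up to 0.118. LGR4 rose by 0.86 ± 0.18 in the G3BP1 RIP (adjusted p 0.00456), or by 0.58 ± 0.09 without both arrays that stood apart, and had a change of 0.12 ± 0.18 in the TIAR RIP. In input LGR4 had a change of -0.44 ± 0.18 and LGR5 of -0.20 ± 0.21, with neither past the test. With the arrays that stood apart left out, LGR4 fell in input by 0.31 ± 0.09 (adjusted p 0.0279) and LGR5 had a change of 0.07 ± 0.10.

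Of the 19 WNT ligands, WNT5A and WNT7B rose in the G3BP1 RIP, and 0 fell. WNT5A, which acts mostly without beta-catenin, read 9.87, 9.83 and 9.68 with arsenite, against 9.33, 9.41 and 8.86 with DMSO, a change of 0.59 ± 0.15 (adjusted p 0.0121). WNT7B, a ligand of brain vessel growth, read 8.95, 8.69 and 8.74 with arsenite, against 8.33, 8.44 and 8.01 with DMSO, a change of 0.53 ± 0.12 (adjusted p 0.00892). Without both arrays that stood apart, WNT5A rose by 0.42 ± 0.11 and WNT7B by 0.405 ± 0.10. Neither gene's groups overlapped, and without replicate 1 of the arsenite RIP the adjusted p was 0.0533 for WNT5A and 0.0529 for WNT7B. In input WNT7B ran from 7.72 to 8.11 with arsenite, against 8.34 to 8.54 with DMSO, and fell by 0.53 ± 0.12 (adjusted p 0.00983). WNT5A had changes of 0.11 ± 0.15 in the TIAR RIP and 0.06 ± 0.15 in input. The TIAR RIP gave 0 calls among WNT ligands, with 1 without both arrays that stood apart, WNT3 (-0.32, adjusted p 0.012).

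**Figure D2:**
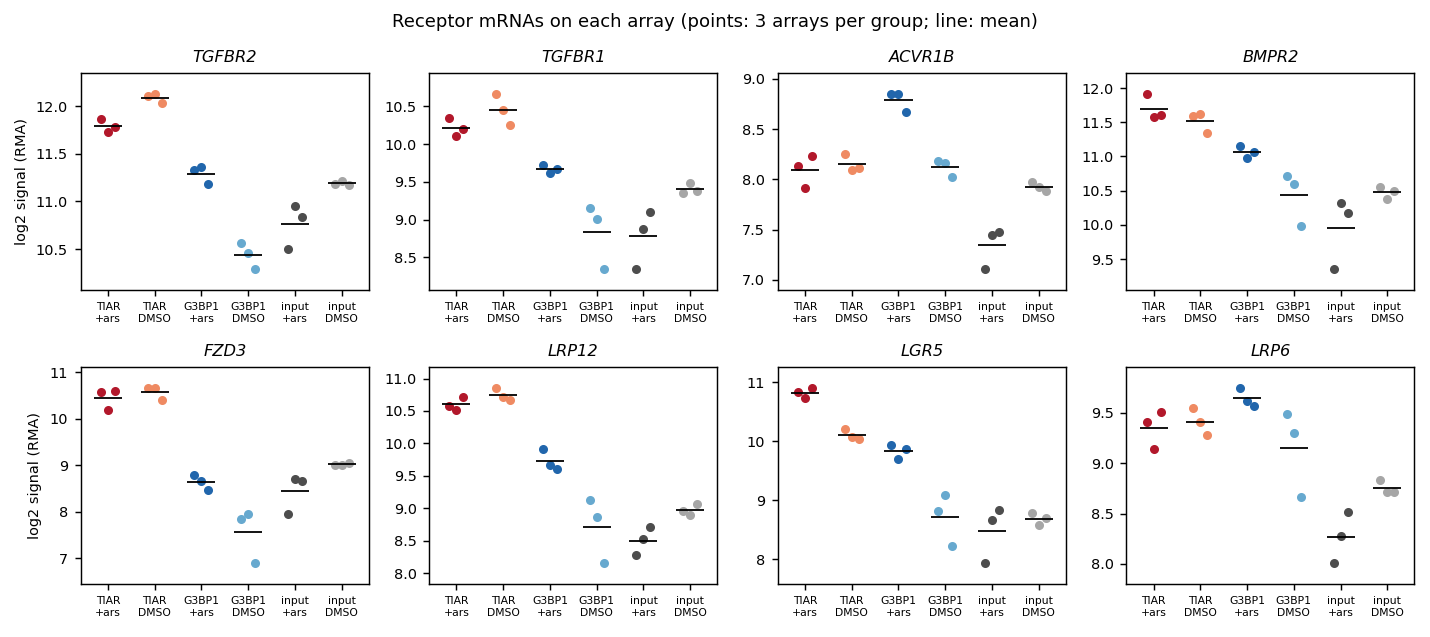
Log2 signal (vertical axis, RMA) of 8 receptor mRNAs on each of the 18 arrays, by group, with +ars for arsenite. Points are arrays and lines are means of 3. For TGFBR2, TGFBR1, FZD3 and LRP12 both TIAR groups lie above both G3BP1 groups, and for ACVR1B the arsenite G3BP1 group is the highest.

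In the Notch pathway, the ligand JAG1 and the receptor NOTCH1 rose in both RIPs and the ligase MIB1 fell in the TIAR RIP and in input. JAG1 read 11.34, 11.24 and 11.25 in the G3BP1 RIP with arsenite, against 10.70, 10.57 and 10.35 with DMSO. It read 10.07, 10.08 and 10.20 in the TIAR RIP with arsenite, against 9.72, 9.61 and 9.65 with DMSO. In input it read 9.68, 9.95 and 10.08 with arsenite, against 9.57, 9.50 and 9.55 with DMSO. Arsenite arrays lay above DMSO arrays in each sample type, with the least room in input, where the array that stood apart was the nearest. JAG1 rose by 0.74 ± 0.10 in the G3BP1 RIP, 0.46 ± 0.10 in the TIAR RIP and 0.37 ± 0.10 in input (adjusted p 0.000222, 0.0083 and 0.0277), and the input call was lost with any of 5 arrays left out, with an adjusted p of up to 0.104. JAG2, DLL3 and DLL4 did not pass the test in any sample type, and DLL3 rose in the G3BP1 RIP by 0.21 (adjusted p 0.0444) without both arrays that stood apart.

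NOTCH1 read 10.19, 10.16 and 10.11 in the G3BP1 RIP with arsenite, against 9.76, 9.66 and 9.53 with DMSO. The TIAR RIP gave 8.46, 8.53 and 8.50 with arsenite, against 8.26, 8.22 and 8.21 with DMSO. The groups were separate in both RIPs, with changes of 0.50 ± 0.08 (adjusted p 0.000482) and 0.27 ± 0.08 (adjusted p 0.033, and up to 0.105 with 1 array left out). Its change in input was 0.21 ± 0.08 and did not pass the test (adjusted p 0.0939), but NOTCH1 rose there without both arrays that stood apart (0.26, adjusted p 0.0146), with median centring (0.30, 0.00426) and with quantile normalization (0.41, 0.00527). NOTCH3 had changes of 0.03, -0.03 and 0.02 in the TIAR RIP, the G3BP1 RIP and input. MIB1 read 6.92, 7.43 and 7.31 in input with arsenite, against 8.69, 8.51 and 8.56 with DMSO. The TIAR RIP gave 8.33, 8.17 and 8.36 with arsenite, against 9.63, 9.46 and 9.24 with DMSO. Each arsenite array was lower than each DMSO array by a wide margin, and MIB1 fell by 1.37 ± 0.18 in input (adjusted p 0.000251), and in the RNA recovered with TIAR it fell by 1.16 ± 0.18 (adjusted p 0.000687). MIB1 in the G3BP1 RIP had a change of -0.30 ± 0.18 (adjusted p 0.354), with overlapping groups, and it fell by 0.56 ± 0.11 (adjusted p 0.00263) without both arrays that stood apart.

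All 3 TGF-beta ligands rose in the G3BP1 RIP, together with FST and BMP4, which makes 5 of 17 in this class and 0 lower. TGFB2 read 11.81, 11.85 and 11.72 in the G3BP1 RIP with arsenite, against 11.29, 11.29 and 11.32 with DMSO. It read 12.03, 11.80 and 12.11 in the TIAR RIP with arsenite, against 11.38, 11.41 and 11.33 with DMSO. In input it read 11.33, 11.73 and 11.62 with arsenite, against 11.04, 11.00 and 11.03 with DMSO. No groups overlapped, and TGFB2 rose by 0.50 ± 0.10, 0.61 ± 0.10 and 0.54 ± 0.10 (adjusted p 0.00311, 0.000766 and 0.00217) in the G3BP1 RIP, the TIAR RIP and input.

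TGFB1 read 11.00, 10.89 and 10.93 in the G3BP1 RIP with arsenite, against 10.46, 10.41 and 10.06 with DMSO, a change of 0.63 ± 0.11 (adjusted p 0.00131). It had changes of 0.04 ± 0.11 in the TIAR RIP and -0.32 ± 0.11 in input, with neither past the test. TGFB3 read 9.21, 9.02 and 8.97 in the G3BP1 RIP with arsenite, against 8.60, 8.71 and 8.42 with DMSO, and rose by 0.49 ± 0.11 (adjusted p 0.00516). With all arrays and the deposited values, it was the only member that rose in the G3BP1 RIP and fell in the TIAR RIP. TGFB3 read 8.58, 8.63 and 8.61 in the TIAR RIP with arsenite, against 9.10, 8.87 and 9.01 with DMSO. The TIAR change was -0.39 ± 0.11 (adjusted p 0.0248), and up to 0.11 with 1 array left out. TGFBR2 had the same 2 calls without both arrays that stood apart, with median centring and with quantile normalization. FZD4 had them without both arrays and with quantile normalization. FST, follistatin, which binds activins and blocks them, read 10.43, 10.64 and 10.37 in the G3BP1 RIP with arsenite, against 10.02, 9.91 and 9.48 with DMSO. It rose there by 0.68 ± 0.16 (adjusted p 0.00923, and 0.0512 without replicate 2 of the arsenite RIP) and had changes of -0.08 ± 0.16 in the TIAR RIP and -0.10 ± 0.16 in input. BMP4 rose by 0.41 ± 0.12 in the G3BP1 RIP (adjusted p 0.0337), or 0.25 ± 0.09 without both arrays that stood apart, which did not pass the test (adjusted p 0.0686). INHBA, which is low, had changes of 0.01, 0.01 and 0.17 in the TIAR RIP, the G3BP1 RIP and input.

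Among the TGF-beta and BMP receptors, TGFBR2, TGFBR1 and ACVR1B rose in the G3BP1 RIP and fell in input, and 0 of the 10 passed the test in the TIAR RIP. TGFBR2, which binds TGF-beta and then recruits TGFBR1, read 11.33, 11.36 and 11.18 in the G3BP1 RIP with arsenite, against 10.56, 10.46 and 10.29 with DMSO. In input it read 10.50, 10.95 and 10.84 with arsenite, against 11.18, 11.21 and 11.17 with DMSO. The groups were apart in both, in opposite directions. TGFBR2 rose by 0.85 ± 0.10 (adjusted p 8.19e-05) in the G3BP1 RIP and fell by 0.43 ± 0.10 (adjusted p 0.0132) in input, or by 0.30 ± 0.07 without both arrays that stood apart.

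TGFBR1, the receptor kinase that phosphorylates SMAD2 and SMAD3, read 9.73, 9.62 and 9.67 in the G3BP1 RIP with arsenite, against 9.15, 9.01 and 8.35 with DMSO. In input it read 8.35, 8.88 and 9.10 with arsenite, against 9.35, 9.48 and 9.38 with DMSO. It rose by 0.83 ± 0.20 (adjusted p 0.00951) in the G3BP1 RIP, or by 0.59 ± 0.11 without both arrays that stood apart. Its fall in input, by 0.62 ± 0.20 (adjusted p 0.049), was lost with any of 15 arrays left out, with a change of -0.41 (adjusted p 0.202) without replicate 1 of the arsenite input. ACVR1B, an activin receptor, read 8.85, 8.85 and 8.67 in the G3BP1 RIP with arsenite, against 8.18, 8.17 and 8.03 with DMSO. In input it read 7.11, 7.44 and 7.48 with arsenite, against 7.97, 7.93 and 7.89 with DMSO. ACVR1B rose by 0.66 ± 0.11 (adjusted p 0.000657) and fell by 0.58 ± 0.11 (adjusted p 0.00205), with no overlap in either. The BMP receptors BMPR2 and ACVR1 had changes of 0.63 ± 0.22 and 0.49 ± 0.23 in the G3BP1 RIP and of -0.52 ± 0.22 and -0.30 ± 0.23 in input, with none past the test. In input without both arrays that stood apart the changes were -0.23 for BMPR2 and 0.01 for ACVR1. Without both arrays that stood apart, BMPR2 rose in the G3BP1 RIP by 0.40 ± 0.11 (adjusted p 0.0189). The changes in the TIAR RIP were -0.30 for TGFBR2, -0.24 for TGFBR1, 0.18 for BMPR2 and 0.30 for ACVR1. That of TGFBR2 passed the test without both arrays that stood apart (adjusted p 0.00365), with median centring (0.0089) and with quantile normalization (0.00101).

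**Figure D3:**
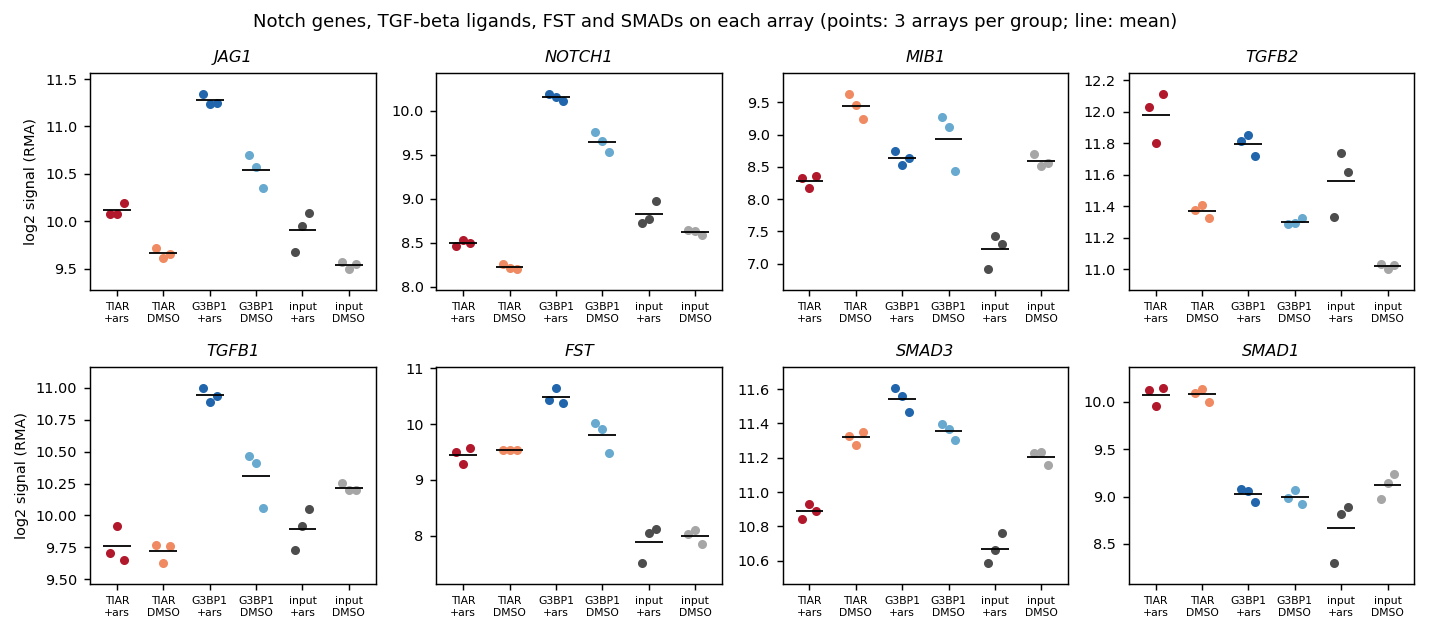
Log2 signal (vertical axis, RMA) of Notch pathway genes, TGF-beta ligands, FST and SMADs on each of the 18 arrays, by group, with +ars for arsenite. Points are arrays and lines are means of 3. JAG1 and TGFB2 are higher with arsenite in each sample type, NOTCH1 and TGFB1 are highest in the arsenite G3BP1 RIP, and SMAD1 is highest in the TIAR RIPs.

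No SMAD passed the test in the G3BP1 RIP, where the 8 had a median change of 0.07. In the TIAR RIP 3 of 8 fell (SMAD3, SMAD6 and SMAD9) and in input 4 of 8 fell (SMAD1, SMAD2, SMAD3 and SMAD9), with 0 higher in either. SMAD3, a transducer of TGF-beta, read 10.59, 10.66 and 10.76 in input with arsenite, against 11.23, 11.23 and 11.16 with DMSO. The TIAR RIP gave 10.84, 10.93 and 10.89 with arsenite, against 11.33, 11.28 and 11.35 with DMSO. The arrays were far apart in both, and SMAD3 fell by 0.53 ± 0.07 in input (adjusted p 0.000144) and by 0.43 ± 0.07 in the TIAR RIP (adjusted p 0.000596). SMAD3 had a G3BP1 change of 0.19 ± 0.07 (adjusted p 0.0827).

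SMAD9, a transducer of BMP signals, read 8.56, 8.35 and 8.50 in the TIAR RIP with arsenite, against 9.01, 9.01 and 8.97 with DMSO, and fell by 0.53 ± 0.09 (adjusted p 0.00136). SMAD6, which inhibits BMP signals, fell there by 0.37 ± 0.08 (adjusted p 0.00395). SMAD2, the other TGF-beta transducer, read 8.65, 9.32 and 9.21 in input with arsenite, against 9.90, 9.74 and 9.88 with DMSO. It fell by 0.78 ± 0.21 (adjusted p 0.0248), while SMAD1 fell by 0.45 ± 0.13 (adjusted p 0.0289) and SMAD9 by 0.33 ± 0.09 (adjusted p 0.0285). These 3 input calls were lost when single arrays were left out, 4 arrays for SMAD2 and SMAD9 and 3 for SMAD1, with an adjusted p of up to 0.111, 0.108 and 0.118. SMAD1 fell by 0.27 ± 0.09 without both arrays that stood apart. SMAD4, the partner of all receptor-activated SMADs, had changes of -0.05 in the TIAR RIP, -0.02 in the G3BP1 RIP and -0.42 in input, and SMAD7 of -0.17, -0.07 and 0.10, with none past the test. SMAD4 fell in input without both arrays that stood apart (-0.29, adjusted p 0.0392), with median centring (-0.32, 0.0392) and with quantile normalization (-0.21, 0.0485). SMAD2 had changes of -0.40 in the TIAR RIP and 0.41 in the G3BP1 RIP, of which the first passed the test without both arrays that stood apart (adjusted p 0.0183).

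Some members carry a family name without being a ligand, receptor or transducer: BMP1, TGFB1I1, TGFBRAP1, LRP2BP and SMAD5-AS1. BMP1, a protease that processes procollagen, rose by 0.81 ± 0.14 in the G3BP1 RIP (adjusted p 0.00121) and by 0.65 ± 0.14 in the TIAR RIP (adjusted p 0.00648). The BMP1 change of 0.33 in input (adjusted p 0.152) became 0.46 (0.000409) without both arrays that stood apart, 0.42 (0.00754) with median centring and 0.54 (0.000109) with quantile normalization. TGFBRAP1, which binds TGFBR1, fell by 1.23 ± 0.20 in input (adjusted p 0.00113) and by 0.75 ± 0.20 in the TIAR RIP (adjusted p 0.0247, and up to 0.105 with 1 array left out). TGFB1I1, a focal adhesion protein, rose by 0.27 ± 0.07 in the G3BP1 RIP (adjusted p 0.0244). It did not pass with median centring (0.21, adjusted p 0.135) or with quantile normalization (0.18, 0.461). LRP2BP and SMAD5-AS1 are low and did not pass the test.

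The promoters of JAG1 and TGFB2 are shown because these members rose with arsenite in all 3 sample types in the model of all arrays. They are RefSeq sequences on GRCh38.p14 from 250 bases before to 50 after the annotated start. JAG1 lies at chr20:10673950-10674249 on the minus strand and TGFB2 at chr1:218345086-218345385 on the plus strand. Capitals mark matches to 4 motifs searched on both strands, the TATA box (TATAAA), the AP-1 site (TGANTCA), the cAMP response element (TGACGTCA) and the antioxidant response element (TGACNNNGC), of which overlapping matches would be joined.
JAG1: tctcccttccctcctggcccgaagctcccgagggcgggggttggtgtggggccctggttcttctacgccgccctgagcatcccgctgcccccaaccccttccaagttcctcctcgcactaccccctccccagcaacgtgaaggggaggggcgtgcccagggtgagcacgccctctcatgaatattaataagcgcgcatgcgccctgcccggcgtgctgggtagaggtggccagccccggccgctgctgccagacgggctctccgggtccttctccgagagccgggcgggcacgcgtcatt
TGFB2: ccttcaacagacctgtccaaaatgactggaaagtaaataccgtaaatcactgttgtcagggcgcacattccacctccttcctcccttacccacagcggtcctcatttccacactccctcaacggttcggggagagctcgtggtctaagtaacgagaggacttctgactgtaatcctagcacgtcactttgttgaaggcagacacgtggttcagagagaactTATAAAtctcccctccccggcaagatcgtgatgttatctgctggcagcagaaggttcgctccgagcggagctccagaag
The JAG1 window holds 68.7% G and C and no match, and the TGFB2 window holds 51.7% and 1 TATAAA, against a median of 58.3% over 27305 promoters. TATAAA occurs in 11.95% of all promoters and in 4 of the 69 members with a promoter in the table. The AP-1 letters occur in 7.76% of all promoters and 2 of the 69, the cAMP response element in 1.98% and 0, and the antioxidant response element in 13.56% and 7. A match describes these letters and is not a site of binding.

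Set against input, the TIAR RIP with arsenite held higher levels of 7 of 10 TGF-beta and BMP receptors, 6 of 8 SMADs, 3 of 10 FZD and 3 of 8 LRP receptors and 2 of 3 LGR receptors, with SMAD6, LRP3 and NOTCH1 lower. In the TIAR RIP with arsenite, 28 members were higher than in input and 11 lower, against 20.3% and 23.5% of all transcript clusters. With DMSO the counts were 26 higher and 12 lower, against 16.8% and 23.8%. In the G3BP1 RIP with arsenite, 43 were higher and 5 lower, against 29.3% and 15.2%, and with DMSO 15 were higher and 9 lower, against 20.7% and 19.2%. Among bright genes, 71.4% of members and 52% of named genes were higher in the stressed G3BP1 RIP, and 24.5% of members and 33.9% of named genes were higher in the unstressed one. These counts depend on the scaling of the arrays: with medians set equal, the TIAR RIP had 33 higher and 4 lower with arsenite, against 23.4% and 19.8% of all transcript clusters, and 41 and 3 with DMSO, against 25.2% and 19.1%. The G3BP1 RIP then had 31 and 9 with arsenite, against 24.7% and 25.9%, and 16 and 8 with DMSO, against 21.3% and 20.8%. Without both arrays that stood apart, the unstressed G3BP1 RIP had 25 higher and 13 lower, against 28% and 21.5%. Both RIPs are set against the same input arrays, so the values of each are given side by side.

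Of the 19 WNT ligands, 1 stood above input in the TIAR RIP with arsenite and 2 below it, and with DMSO 5 of 10 TGF-beta and BMP receptors and 3 of 8 SMADs were higher there. In the stressed G3BP1 RIP, 8 of 10 of these receptors, 7 of 8 LRP receptors and 4 of 8 SMADs were higher than in input. With DMSO the G3BP1 RIP had 0 higher and 2 lower of the 10 TGF-beta and BMP receptors, and 0 higher and 1 lower of the 8 SMADs. The class medians of the stressed TIAR RIP were 0.91 for the receptors, 0.68 for the SMADs and -0.18 for the WNT ligands, and those of the stressed G3BP1 RIP were 0.66, 0.37 and -0.10, against -0.08 and 0.03 for all transcript clusters.

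**Figure D4:**
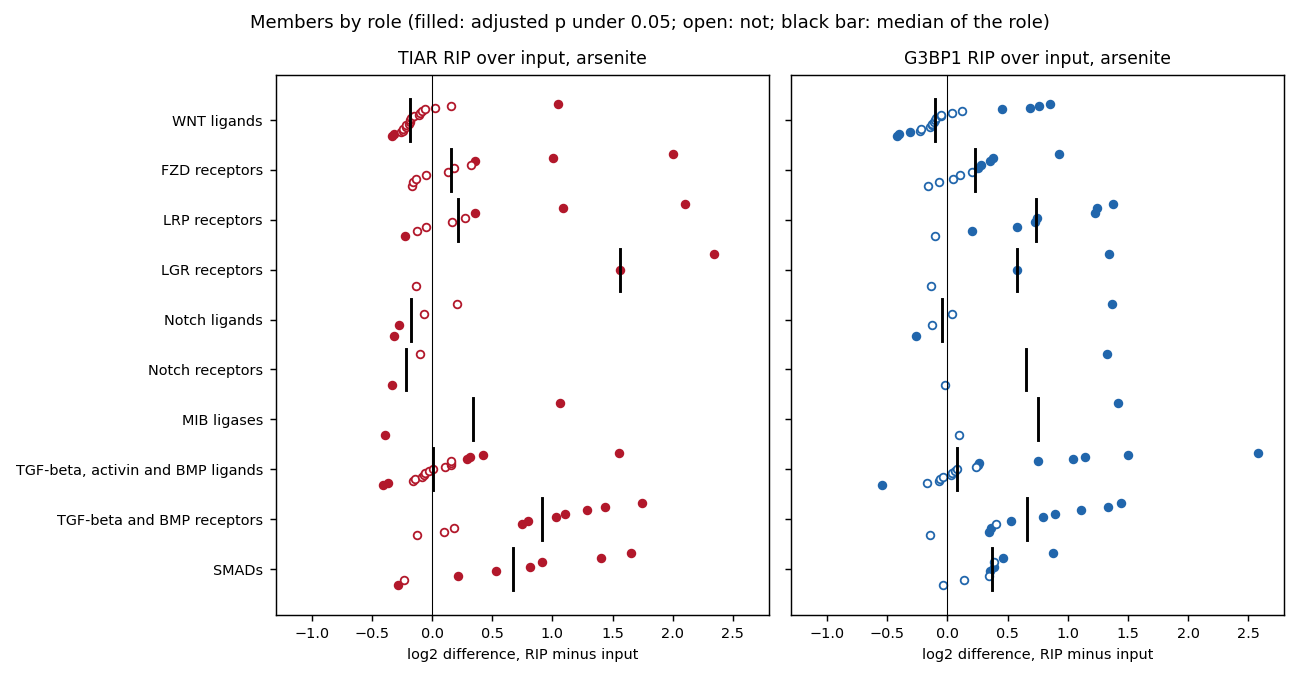
Log2 difference from input (horizontal axis) of each member by role in the arsenite TIAR RIP (left) and the arsenite G3BP1 RIP (right). Each point is a gene (limma estimate, 3 arrays against 3), filled points passed an adjusted p of 0.05, and black bars are the medians of the role. The LGR receptors, the TGF-beta and BMP receptors and the SMADs have medians above 0.3 in both panels, and the WNT ligands have medians below 0.

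Among the FZD, LRP and LGR receptors and the WNT ligands, the largest differences from input were those of LGR5, LRP12 and FZD3 in the TIAR RIP. LGR5 read 10.84, 10.73 and 10.90 in the stressed TIAR RIP, against 7.95, 8.68 and 8.84 in stressed input, a difference of 2.34 ± 0.21 (adjusted p 4.45e-07), and of 1.42 ± 0.21 with DMSO. LRP12 read 10.58, 10.51 and 10.72 in the stressed TIAR RIP, against 8.28, 8.52 and 8.71 in stressed input, a difference of 2.10 ± 0.19, and of 1.78 ± 0.19 with DMSO. FZD3 read 10.58, 10.18 and 10.59 in the stressed TIAR RIP, against 7.95, 8.72 and 8.67 in stressed input, a difference of 2.01 ± 0.24, and of 1.56 ± 0.24 with DMSO. All TIAR arrays of these receptors lay more than 1 above every input array of the same condition. FZD3 was lower in the unstressed G3BP1 RIP than in input, by 1.45 ± 0.24 (adjusted p 0.000183), or 1.12 ± 0.13 without both arrays that stood apart, while LGR5 and LRP12 were higher in the stressed G3BP1 RIP by 1.34 ± 0.21 and 1.23 ± 0.19. LGR4 was higher in the TIAR RIP by 1.56 ± 0.18 with arsenite and 1.00 ± 0.18 with DMSO. LGR4 in the G3BP1 RIP was higher than input with arsenite by 0.58 ± 0.18 and lower with DMSO, with a difference of -0.72 ± 0.18, or -0.44 ± 0.09 without both arrays that stood apart. The stressed G3BP1 call of LGR4 was lost with either of 2 arrays left out, with an adjusted p of up to 0.0834 without replicate 1 of the arsenite input.

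The co-receptor LRP6 was higher than input in the TIAR RIP by 1.09 ± 0.18 with arsenite and 0.66 ± 0.18 with DMSO, and in the stressed G3BP1 RIP by 1.37 ± 0.18. With DMSO its G3BP1 difference was 0.40 ± 0.18 (adjusted p 0.0926), and 0.64 ± 0.12 (adjusted p 0.000514) without both arrays that stood apart. LRP1 and LRP8 were higher than input in the G3BP1 RIP, LRP8 by 1.25 ± 0.08 with arsenite and 0.71 ± 0.08 with DMSO, and LRP1 by 0.73 ± 0.06 and 0.38 ± 0.06. LRP1 had TIAR differences of -0.13 and -0.11, which did not pass the test. FZD7 was higher in the G3BP1 RIP by 0.93 ± 0.15 with arsenite and 0.51 ± 0.15 with DMSO, and had TIAR differences of 0.33 and 0.23, of which the second passed without both arrays that stood apart (adjusted p 0.0202). FZD2 was higher in the stressed G3BP1 RIP by 0.38 ± 0.09 and lower in the unstressed TIAR RIP, with a difference of -0.34 ± 0.09. The G3BP1 value of FZD2, and those of FZD1, FZD8 and LRP3, turned negative with quantile normalization. WNT5A was the only WNT ligand higher than input in the TIAR RIP, by 1.05 ± 0.15 with arsenite and 1.01 ± 0.15 with DMSO. In the stressed G3BP1 RIP WNT7B, WNT5B, WNT5A and WNT3 were higher, by 0.85, 0.76, 0.68 and 0.45, and WNT1, WNT6 and WNT10A were lower, with differences of -0.42, -0.40 and -0.31. Without replicate 1 of the arsenite G3BP1 RIP, WNT1 had an adjusted p of 0.108 and WNT10A a difference of -0.21 (adjusted p 0.172). The unstressed G3BP1 call of FZD7 had an adjusted p of 0.0503 without replicate 1 of that RIP.

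In the Notch pathway, NOTCH1 and JAG1 were higher than input in the G3BP1 RIP and, with the deposited values, not in the TIAR RIP. NOTCH1 read 10.19, 10.16 and 10.11 in the stressed G3BP1 RIP, against 8.73, 8.78 and 8.98 in stressed input. It was higher by 1.33 ± 0.08 (adjusted p 7.6e-09) with arsenite and by 1.03 ± 0.08 (adjusted p 7.5e-08) with DMSO, and lower in the TIAR RIP, with differences of -0.33 ± 0.08 and -0.39 ± 0.08. JAG1 was higher in the G3BP1 RIP by 1.37 ± 0.10 and 1.00 ± 0.10, while its TIAR differences were 0.21 ± 0.10 and 0.12 ± 0.10, with adjusted p of 0.113 and 0.399. The JAG1 difference in the stressed TIAR RIP passed with median centring (0.27, adjusted p 0.006) and not with quantile normalization (0.08, 0.366). MIB1 was higher than input in the TIAR RIP by 1.06 ± 0.18 with arsenite and 0.85 ± 0.18 with DMSO, and in the stressed G3BP1 RIP by 1.42 ± 0.18, with 0.35 ± 0.18 in the unstressed one, or 0.61 ± 0.11 (adjusted p 0.00051) without both arrays that stood apart. DLL3 was lower than input in both RIPs and both conditions, with differences from -0.58 to -0.26. MIB2 was lower in the TIAR RIP, with differences of -0.39 and -0.21, and the second was 0.02 with quantile normalization and was lost with any of 6 arrays left out (adjusted p of up to 0.105). NOTCH3 had differences from -0.11 to 0.02 with none past the test.

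FST stood furthest above input among the TGF-beta ligands and their inhibitor. It read 10.43, 10.64 and 10.37 in the stressed G3BP1 RIP, against 7.52, 8.05 and 8.12 in stressed input, a difference of 2.58 ± 0.16 (adjusted p 1.17e-08), or 6-fold. With DMSO the G3BP1 difference was 1.81 ± 0.16, and in the TIAR RIP it was 1.55 ± 0.16 with arsenite and 1.54 ± 0.16 with DMSO. The BMP ligands BMP4 and BMP6 were higher in the G3BP1 RIP, BMP4, which is low in input, by 1.50 ± 0.12 and 1.04 ± 0.12 and BMP6 by 1.15 ± 0.11 and 0.96 ± 0.11. TGFB1 was higher in the stressed G3BP1 RIP by 1.04 ± 0.11, had 0.10 ± 0.11 in the unstressed one, and was lower in the unstressed TIAR RIP with a difference of -0.50 ± 0.11, and -0.14 ± 0.11 with arsenite, which did not pass the test. With the arrays that stood apart left out, TGFB1 was higher in the unstressed G3BP1 RIP by 0.22 and lower in the stressed TIAR RIP, with a difference of -0.22 (adjusted p 0.0358 each). TGFB2 was higher in the TIAR RIP by 0.42 ± 0.10 and 0.35 ± 0.10, and its G3BP1 differences were 0.23 (adjusted p 0.0673) with arsenite and 0.28 (adjusted p 0.0361) with DMSO. The unstressed G3BP1 call of TGFB2 was lost with any of 6 arrays left out, with an adjusted p of up to 0.0907. INHBB, an activin and inhibin subunit, was lower than input in every RIP, with differences from -0.54 to -0.27. With DMSO its call was lost in the TIAR RIP with any of 6 arrays left out, to an adjusted p of up to 0.192, and in the G3BP1 RIP with 1, to 0.0657. INHBA had differences from 0.01 to 0.20, with none past the test.

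Of the TGF-beta and BMP receptors, BMPR2 read 11.91, 11.57 and 11.61 in the stressed TIAR RIP, against 9.36, 10.33 and 10.17 in stressed input. TGFBR1 read 10.34, 10.11 and 10.20 in the stressed TIAR RIP, against 8.35, 8.88 and 9.10 in stressed input. Each TIAR array was above each input array, and the differences were 1.75 ± 0.22 for BMPR2 and 1.44 ± 0.20 for TGFBR1 with arsenite, and 1.04 ± 0.22 and 1.06 ± 0.20 with DMSO. TGFBR2 was higher in the TIAR RIP by 1.03 ± 0.10 and 0.90 ± 0.10. ACVR1 was higher by 1.29 ± 0.23 and 0.68 ± 0.23, while ACVR1B was higher with arsenite by 0.75 ± 0.11. The DMSO call of ACVR1 was lost with any of 4 arrays left out, with an adjusted p of up to 0.0876. These receptors in the G3BP1 RIP split by condition: with arsenite TGFBR2, TGFBR1, BMPR2, ACVR1 and ACVR1B were higher than input by 0.53, 0.89, 1.11, 1.33 and 1.45. With DMSO, TGFBR2 and TGFBR1 were lower, with differences of -0.75 ± 0.10 (adjusted p 3.3e-05) and -0.57 ± 0.20 (adjusted p 0.0328), the second -0.32 ± 0.11 without both arrays that stood apart. BMPR2 and ACVR1 had -0.04 and 0.54 there, with neither past the test, and ACVR1 was higher by 0.75 ± 0.13 (adjusted p 0.000365) without both arrays that stood apart.

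Among the SMADs, the BMP transducers SMAD5, SMAD1 and SMAD9 were higher than input in the TIAR RIP in both conditions. SMAD5 was higher by 1.65 ± 0.27 and 1.23 ± 0.27, SMAD1 by 1.41 ± 0.13 and 0.96 ± 0.13, and SMAD9 by 0.82 ± 0.09 and 1.02 ± 0.09, with arsenite and with DMSO. SMAD2 and SMAD4 were higher in the stressed TIAR RIP by 0.91 ± 0.21 and 0.54 ± 0.15, and had 0.53 and 0.16 in the unstressed one, of which the first passed without both arrays that stood apart (adjusted p 0.0012). SMAD3 was higher in the stressed G3BP1 RIP by 0.87 ± 0.07 (adjusted p 9.11e-08) and in the stressed TIAR RIP by 0.22 ± 0.07, with DMSO differences of 0.15 and 0.11 that did not pass the test. The stressed TIAR call of SMAD3 was lost with either of 2 arrays left out (adjusted p of up to 0.0592), and its unstressed G3BP1 difference passed without both arrays that stood apart (0.18, adjusted p 0.0279). SMAD2 was lower in the unstressed G3BP1 RIP than in input, with a difference of -1.05 ± 0.21 (adjusted p 0.000984), and had 0.13 in the stressed one. SMAD7 had differences from -0.23 to 0.13 and SMAD4 had 0.35 and -0.05 in the G3BP1 RIP, with none past the test.

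Set against each other, the RIPs held different members. FZD3, LGR4, LGR5, LRP12, TGFBR1, TGFBR2, BMPR2, SMAD2 and the BMP SMADs were higher in the TIAR RIP, and NOTCH1, JAG1, TGFB1, BMP4, BMP6 and LRP8 were higher in the G3BP1 RIP. With arsenite 12 members were higher in the TIAR RIP than in the G3BP1 RIP and 27 were lower, against 15.6% and 28.7% of all transcript clusters. With DMSO 20 were higher and 14 lower, against 19.3% and 27.5%. Of the 46 members called in at least 1 condition, 12 were higher and 14 lower in both, and TGFB3 was lower with arsenite and higher with DMSO. The split of calls depends on the scaling: with medians set equal, the counts were 19 higher and 18 lower with arsenite and 28 and 9 with DMSO, against 27.6% and 23% and 27% and 22.7% of all transcript clusters, with a shift of the median of all transcript clusters by 0.23 and 0.19. With quantile normalization they were 21 and 16, against 22% and 24.5%, and 27 and 10, against 23.6% and 24.9%.

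**Figure D5:**
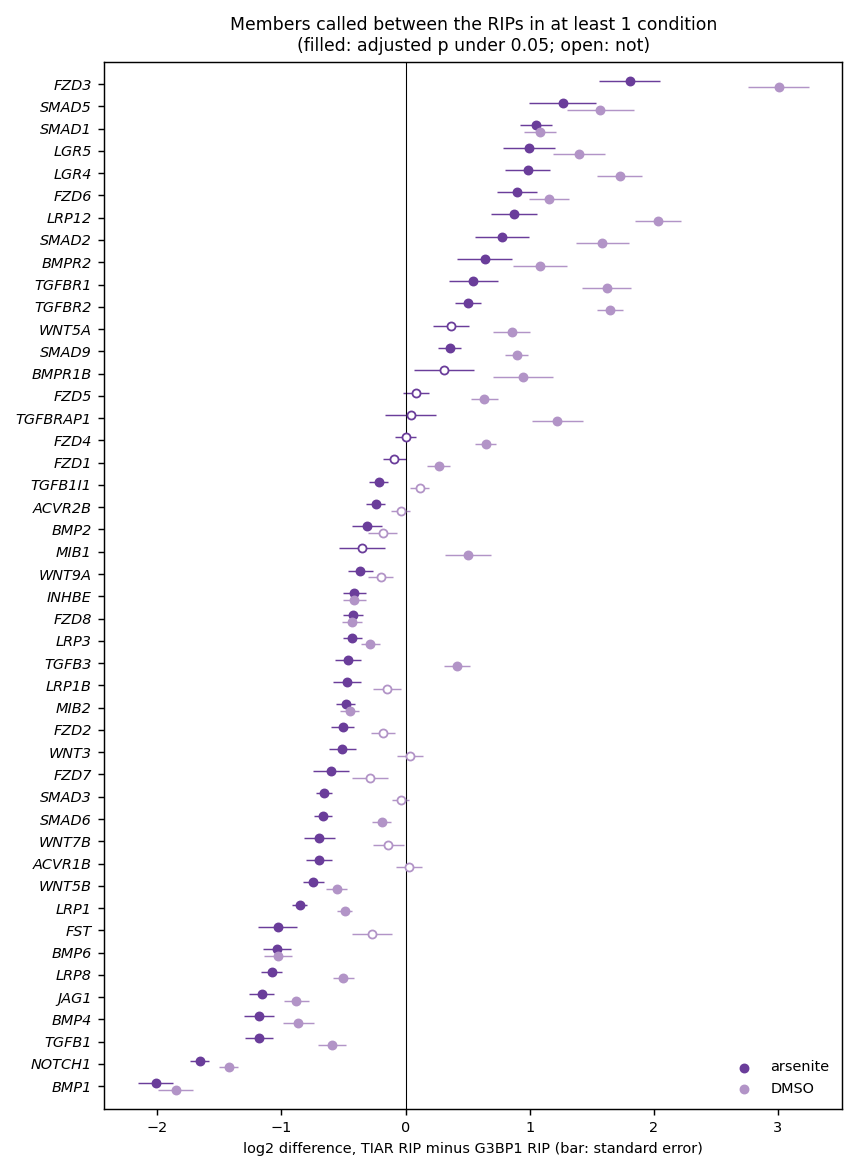
Log2 difference between the RIPs (TIAR minus G3BP1, horizontal axis) with arsenite and with DMSO for the 46 members called in at least 1 condition. Points are limma estimates from 3 arrays against 3, bars are standard errors, and filled points passed an adjusted p of 0.05. FZD3 lies at 1.80 and 3.01 at one end, and NOTCH1 at -1.66 and -1.42 and BMP1 at -2.02 and -1.85 at the other.

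FZD3 read 10.58, 10.18 and 10.59 in the stressed TIAR RIP, against 8.79, 8.67 and 8.47 in the stressed G3BP1 RIP. With DMSO it read 10.66, 10.66 and 10.40 in the TIAR RIP, against 7.84, 7.96 and 6.91 in the G3BP1 RIP. The groups were far apart, with differences of 1.80 ± 0.24 (adjusted p 1.6e-05) and 3.01 ± 0.24 (adjusted p 5.19e-08). LRP12 differed by 0.87 ± 0.19 with arsenite and 2.03 ± 0.19 with DMSO, LGR4 by 0.98 ± 0.18 and 1.73 ± 0.18, LGR5 by 0.99 ± 0.21 and 1.39 ± 0.21, and FZD6 by 0.90 ± 0.16 and 1.16 ± 0.16. TGFBR2 read 11.87, 11.73 and 11.78 in the stressed TIAR RIP, against 11.33, 11.36 and 11.18 in the stressed G3BP1 RIP. With DMSO it read 12.11, 12.12 and 12.03 in the TIAR RIP, against 10.56, 10.46 and 10.29 in the G3BP1 RIP. Its differences were 0.50 ± 0.10 and 1.65 ± 0.10 (adjusted p 0.000881 and 3.6e-09), those of TGFBR1 0.55 ± 0.20 and 1.62 ± 0.20, and those of BMPR2 0.64 ± 0.22 and 1.08 ± 0.22. With arsenite the call was lost with any of 5 arrays left out for TGFBR1 and any of 3 for BMPR2, with an adjusted p of up to 0.111 and 0.108. SMAD5 differed by 1.27 ± 0.27 and 1.57 ± 0.27, SMAD1 by 1.05 ± 0.13 and 1.08 ± 0.13, SMAD2 by 0.78 ± 0.21 and 1.59 ± 0.21, and SMAD9 by 0.36 ± 0.09 and 0.90 ± 0.09.

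On the G3BP1 side, NOTCH1 read 8.46, 8.53 and 8.50 in the stressed TIAR RIP, against 10.19, 10.16 and 10.11 in the stressed G3BP1 RIP. With DMSO it read 8.26, 8.22 and 8.21 in the TIAR RIP, against 9.76, 9.66 and 9.53 in the G3BP1 RIP. The groups were more than 1 apart, with differences of -1.66 ± 0.08 (adjusted p 4.6e-10) and -1.42 ± 0.08 (adjusted p 6.85e-10). JAG1 had differences of -1.16 ± 0.10 and -0.88 ± 0.10, BMP4 of -1.18 ± 0.12 and -0.86 ± 0.12, BMP6 of -1.04 ± 0.11 and -1.03 ± 0.11, and TGFB1 of -1.18 ± 0.11 and -0.59 ± 0.11. LRP8 had differences of -1.08 ± 0.08 and -0.50 ± 0.08, LRP1 of -0.85 ± 0.06 and -0.49 ± 0.06, and WNT5B of -0.74 ± 0.09 and -0.56 ± 0.09. FST had -1.03 ± 0.16 with arsenite and -0.27 ± 0.16 with DMSO, and only the first passed the test. SMAD3 had -0.66 ± 0.07 and -0.04 ± 0.07, FZD2 -0.51 ± 0.09 and -0.18 ± 0.09, and FZD7 -0.60 ± 0.15 and -0.28 ± 0.15, with only the arsenite values past the test. Without both arrays that stood apart, the DMSO differences of FST and FZD7 were -0.43 and past the test (adjusted p 0.00256 and 0.000575). They did not pass with median centring (-0.09 and -0.10, adjusted p 0.593 and 0.466) or with quantile normalization (-0.02 and -0.01, 0.931 and 0.932). MIB1 had -0.35 ± 0.18 with arsenite and 0.50 ± 0.18 with DMSO, where the groups overlapped and the value was 0.25 ± 0.11 (adjusted p 0.0848) without both arrays that stood apart. The MIB1 difference with DMSO was 0.69 (adjusted p 0.000592) with median centring and 0.785 (4.68e-05) with quantile normalization. WNT5A had 0.37 (adjusted p 0.0535) with arsenite and 0.85 ± 0.15 (adjusted p 0.000137) with DMSO. Also without both arrays that stood apart, the arsenite differences of WNT5A, MIB1 and LRP6 passed the test (adjusted p 0.00624, 0.0095 and 0.0367). TGFB2, LRP6, ACVR1, NOTCH3, SMAD4, SMAD7 and INHBA did not pass the test in either condition, with differences from -0.29 to 0.26. With DMSO and median centring, SMAD4, LRP6 and TGFB2 passed, with 0.40, 0.45 and 0.26 (adjusted p 0.00333, 0.0116 and 0.0359). With DMSO and quantile normalization, SMAD4 and LRP6 passed, with 0.36 and 0.55 (adjusted p 0.000252 and 0.000194).

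The change with arsenite was then compared between sample types by interaction contrasts, which test the difference of changes itself. In the G3BP1 RIP it exceeded the change in input for 23 members and was below it for 0, against 14.3% and 2.65% of all transcript clusters. The median difference was 0.25 for members and 0.05 for all transcript clusters. At an unadjusted p under 0.05, limma gave 39 members above and 0 below, with no share of all transcript clusters at that threshold to set beside them. TGFBR1 had a difference of changes of 1.46 ± 0.28, TGFBR2 of 1.28 ± 0.15, ACVR1B of 1.25 ± 0.15 and BMPR2 of 1.15 ± 0.31, which makes 4 of the 10 TGF-beta and BMP receptors. Without both arrays that stood apart, the values were 1.00 for TGFBR1, 1.07 for TGFBR2, 1.08 for ACVR1B and 0.63 for BMPR2. For these receptors the G3BP1 RIP rose or had a positive change while input had a negative one. JAG1, NOTCH1, WNT5A and ACVR1 had values of 0.37, 0.30, 0.53 and 0.79 with adjusted p from 0.0797 to 0.117, and TGFB2 had -0.04. These values without both arrays that stood apart were 0.16, 0.19, 0.24 and 0.27, and -0.15 for TGFB2.

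The change in the TIAR RIP differed from that in input for 0 members, against 0.604% of all transcript clusters above and 0.05% below. At an unadjusted p under 0.05, limma gave 7 members above and 1 below (BMP5), again without a share of all transcript clusters at that threshold. The smallest adjusted p was 0.137, for ACVR1B, with a difference of changes of 0.52 ± 0.15. With array weights 4 members passed the test, a count given without a share of all transcript clusters. Without both arrays that stood apart 1 did, against 2.7% of all transcript clusters above and 0.627% below. Against the G3BP1 RIP, the TIAR change was below for 19 members and above for 0, against 8.55% and 5.05% of all transcript clusters. At an unadjusted p under 0.05 the TIAR change was below for 28 and above for 0, a count given without a share of all transcript clusters. The median difference was -0.16 for members and -0.02 for all transcript clusters. Among the members that passed the test, LRP12, TGFBR2 and TGFBR1 had differences of changes of -1.16 ± 0.26, -1.15 ± 0.15 and -1.07 ± 0.28, and TGFB3 and SMAD3 of -0.88 ± 0.15 and -0.62 ± 0.10. The TGFBR1 call had an adjusted p of 0.0509 without replicate 1 of the TIAR RIP with DMSO. JAG1 and NOTCH1 had -0.28 and -0.23 and did not pass the test. These contrasts share arrays with each other, so their lists are not set against one another.

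Other genes of the same pathways were taken from lists of 61 WNT, 45 Notch and 62 TGF-beta and BMP genes, of which 51, 34 and 51 had a transcript cluster of their own. In the G3BP1 RIP with arsenite, 14 WNT genes rose and 4 fell, 10 Notch genes rose and 2 fell, and 9 TGF-beta and BMP genes rose and 0 fell, against 10.4% and 4.08% of all transcript clusters. The carrier of WNT secretion WLS rose by 0.74 ± 0.17, and CTNNB1, the gene of beta-catenin, fell by 0.48 ± 0.12. In the Notch list the gamma-secretase subunit APH1A rose by 0.94 ± 0.16 and SNW1, a co-activator of Notch transcription, fell by 1.31 ± 0.16. LTBP1, which holds latent TGF-beta in the matrix, rose by 0.80 ± 0.16, and the co-receptor ENG by 0.73 ± 0.07. In input the counts were 0 higher and 16 lower for WNT, 2 and 8 for Notch, and 3 and 9 for TGF-beta and BMP, against 2.52% and 11.2% of all transcript clusters, with falls of 1.06 ± 0.12 for the beta-catenin partner BCL9 and of 0.99 ± 0.18 for TAB2 of TGF-beta kinase signalling. In the TIAR RIP they were 1 and 11, 4 and 7, and 7 and 4, against 6.15% and 5.71%, with a fall of 0.93 ± 0.11 for the polarity gene PRICKLE1, a rise of 0.86 ± 0.08 for the gamma-secretase subunit NCSTN and a rise of 0.96 ± 0.16 for LTBP1.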

How the data were processed

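RNA of U251-MG cells was measured on 18 exon arrays, 3 biological replicates in each of 6 groups, grouped by the sample labels. The deposited values are log2 signals per transcript cluster, made by the authors with RMA (background correction, quantile normalization and summarisation of probes) in Expression Console, per the submitters' processing notes. The labels give no software version or genome build, and do not say if all arrays were normalized as a set. The number of arrays limits the precision. Genes were named from the platform annotation: 14432 of 22011 transcript clusters had a single symbol, 2408 several and 5171 none. RefSeq names changed 0 symbols.

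A limma 3.58.1 model (R 4.3.3) with 6 group means was fitted to all 22011 transcript clusters, unfiltered, with 12 residual degrees of freedom, and 12 contrasts were tested with lmFit and eBayes. P-values were adjusted by Benjamini-Hochberg over all transcript clusters of a contrast, with a threshold of 0.05, two-sided. The procedure was tested on simulated data. Promoters came from RefSeq, where 69 of the 88 members matched. Tables and figures were made with pandas 2.3.3 and matplotlib 3.10.9.

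Membership follows from gene symbols alone, but these families and the gene lists were chosen with earlier results of these data known. Array values are given for up to 4 members per role and comparison, those with the largest change among the called, and a fixed set of central genes is reported whether called or not. Alternatives were other models, scalings and left-out arrays.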

Additional observations from a re-analysis of the deposited data

Results flagged for a closer look

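The change with arsenite differed between sample types, by the interaction contrast, for the following members. In the G3BP1 RIP it exceeded the change in input (difference of log2 changes) by 0.54 for FZD2, 1.65 for FZD3, 0.63 for FZD4, 1.30 for LGR4 and 1.32 for LGR5. The LRP receptors LRP1, LRP6, LRP8 and LRP12 had differences of 0.35, 0.98, 0.53 and 1.49. The WNT ligands WNT5B and WNT7B had 0.44 and 1.06, and the ligase MIB1 had 1.06. Among TGF-beta ligands and their inhibitor, TGFB1 had 0.95, TGFB3 had 0.75 and FST had 0.78. The receptors ACVR1B, BMPR2, TGFBR1 and TGFBR2 had 1.25, 1.15, 1.46 and 1.28, and the transducers SMAD2 and SMAD3 had 1.19 and 0.72. TGFBRAP1 had 1.66 and TGFB1I1 had 0.33. A positive difference is not always a rise in the G3BP1 RIP: MIB1 changed by -0.30 there and by -1.37 in input. SMAD2, SMAD3 and TGFBRAP1 fell in input, and their G3BP1 changes of 0.41, 0.19 and 0.43 did not pass the test. LRP6, BMPR2 and WNT5B did not pass it in either sample type. Without both arrays that stood apart, the values were 1.07 for FZD3, 0.81 for LGR5, 0.60 for LRP6, 0.66 for MIB1, 0.69 for SMAD2, 0.63 for BMPR2 and 0.43 for FST, the last with an adjusted p of 0.0508. In the same setting LGR4, LRP12, TGFBR1 and TGFBRAP1 had 0.89, 1.10, 1.00 and 1.21. With median centring, FZD2, LRP1, WNT5B and TGFB1I1 did not pass the test (adjusted p 0.0891, 0.327, 0.148 and 0.366). They did not pass with quantile normalization either (adjusted p 0.529, 0.452, 0.312 and 0.964).

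The change in the TIAR RIP was below that in the G3BP1 RIP for FZD3, FZD4 and FZD5, with differences of -1.20, -0.65 and -0.55. LRP1, LRP8 and LRP12 had -0.36, -0.58 and -1.16, WNT3 and WNT7B had -0.55 and -0.56, and MIB1 had -0.85. TGFB1, TGFB3 and FST had -0.59, -0.88 and -0.76. ACVR1B, TGFBR1 and TGFBR2 had -0.73, -1.07 and -1.15, while SMAD3, SMAD6 and SMAD9 had -0.62, -0.47 and -0.54. TGFBRAP1 had -1.18. The calls of MIB1 and WNT7B were lost when any of 12 and 14 arrays were left out, with an adjusted p of up to 0.106 and 0.129. FZD5, LRP1 and WNT3 did not pass the test with median centring (adjusted p 0.0983, 0.122 and 0.0577) or with quantile normalization (0.343, 0.212 and 0.142).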

How the results depend on the processing

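The count of members past the threshold stayed within 1.5 times the reported one in most settings. Counts in this section are of members only, without the share of all transcript clusters in the same setting. A model of only the groups compared gave 7 members for the G3BP1 change with arsenite, 4 for the input change and 15 for the unstressed G3BP1 RIP over input, from fewer arrays. Array weights gave 24 for the input change, 39 for the unstressed G3BP1 RIP over input and 4 for the TIAR change beyond input, and leaving out both arrays that stood apart gave 38 and 1 for the last 2 of these. The cause was not tested. Leaving out 1 array gave 7 to 16 members for the TIAR change, 19 to 27 for the G3BP1 change and 7 to 22 for the input change. It gave 32 to 41 and 32 to 43 for the TIAR RIP over input with arsenite and with DMSO, 38 to 49 and 19 to 28 for the G3BP1 RIP over input, and 35 to 42 and 32 to 38 for TIAR over G3BP1. For the interactions it gave 0 for TIAR beyond input, 20 to 27 for G3BP1 beyond input and 13 to 21 for TIAR beyond G3BP1. Of 312 called gene values, 190 kept their call in every setting run. Quantile normalization turned the sign of MIB2 in the unstressed TIAR RIP over input (0.018), of FZD1 (-0.10), FZD2 (-0.02), FZD8 (-0.15), LRP3 (-0.11) and TGFB1I1 (-0.10) in the stressed G3BP1 RIP over input, and of SMAD6 in TIAR over G3BP1 with DMSO (0.11). TGFB1I1 in TIAR over G3BP1 with arsenite turned to 0.010 with median centring and 0.16 with quantile normalization. Replicate numbers did not pair the arrays: 14 of 45 correlations between same-numbered arrays were over 0.1, with a median of 0.015. With the replicate block the counts were 9, 24 and 11 for the TIAR, G3BP1 and input changes, 38 and 38 for TIAR over input, 47 and 23 for G3BP1 over input, 38 and 33 for TIAR over G3BP1, and 0, 23 and 17 for the interactions.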
